A study of Mus musculus with 20 samples.

Results

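The genes described here encode the nuclear subunits of respiratory complexes II, III and IV and of ATP synthase, complex V. They were chosen by name (Sdha to Sdhd, Uqcr genes, Cyc1, Cox4 to Cox8 genes and Atp5 genes) with a level of at least 1 CPM, the usual unit in which estimated counts are scaled to the library total, in 5 or more libraries. Of 55 rows that carried such a name, 8 were pseudogene entries marked "-ps" and 1, Cox6b2, was under the minimum, which left 46 genes of the 21844 rows in the table and of the 14361 rows that met the same minimum and were tested. They comprised 4 genes of complex II, 9 of complex III, 16 of complex IV and 17 of complex V. Just inside the minimum stood Atp5g2, with a mean of 1.12 CPM and 13 of 20 libraries at 1 CPM or more, and Cox4i2, with 2.07 CPM and 19 libraries, whereas Cox6b2 averaged 0.233 CPM and reached 1 CPM in 0 libraries. Cox7b2 and Cox8c, whose names also fit the rule, had no row in the table and so were not analysed here.

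RNA was sequenced from hindlimb muscle of mice in 4 groups of 5 libraries. All 20 libraries came from mice labelled Cre+:iMSBmal1 fl/fl, that is, with a floxed Bmal1 gene and a Cre recombinase, so the controls carried both alleles too. The groups were vehicle without exercise (vehicle sedentary), labelled muscle Bmal1 knockout without exercise (labelled-knockout sedentary), vehicle with 6 weeks of daily treadmill training (vehicle trained) and labelled knockout with the same training (labelled-knockout trained). The agent that started the deletion, the promoter that drives Cre and the age of the mice are not given in the sources used here. Muscle was taken 47 hours after the last bout by the series' design text and 48 hours by the sample labels, and the labels name the gastrocnemius in one field and the tibialis anterior in another. Nothing in the labels says that the libraries came from separate animals, so the p-values below measure the spread between these libraries, which may be technical in part.

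Library totals ran from 10610333 to 19153527 estimated counts. In the labelled-knockout trained group, libraries 1 and 4 agreed within sampling noise, as did libraries 3 and 5, so each pair was counted as 1 sample. The counts of a pair were summed for the fits and its CPM values were averaged. That group has n = 3 and the series 18 samples. Vehicle-trained library 2 stood apart from its group. Arntl, the listed symbol of Bmal1, was 6.79 ± 0.890 CPM in vehicle sedentary and 13.2 ± 3.28 CPM in labelled-knockout sedentary muscle (SD, n = 5 each, exact two-sided permutation p = 0.00794), so it was not lower under the knockout label. In trained muscle it was 31.6 ± 56.3 CPM with vehicle (SD, n = 5), where library 2 stood at 132 CPM and the others at 6.32 to 6.68 CPM, and 10.9 ± 4.45 CPM in the labelled knockouts (SD, n = 3, exact permutation p = 0.786). A gene-level count includes exons outside the deleted part, so these values do not check the deletion, and every direction below rests on the labels. All 11 markers of muscle fibres were present, summing to between 57915 and 105960 CPM in each sample.

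Complex II, succinate dehydrogenase, passes electrons from succinate to ubiquinone and is at the same time an enzyme of the citric acid cycle. Complex III hands electrons from ubiquinol to cytochrome c, complex IV passes them from cytochrome c to oxygen, and ATP synthase uses the resulting proton gradient to make ATP. Except for complex II, each contains subunits encoded by mitochondrial DNA beside the nuclear ones, and in skeletal muscle these genes are known for high levels in oxidative fibres and for their response to endurance training. BMAL1 is a core clock transcription factor that binds E-boxes with its partner CLOCK.

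The upstream stretches of 4 genes show which recognition letters lie before genes of this set. They are given because Atp5g3 had, with Cox5a, the joint lowest adjusted p of the set in trained muscle and carries both an E-box and an estrogen-related receptor (ERR) letter run, Atp5pb carries an E-box, Sdhd carries a match for nuclear respiratory factor 1 (NRF1), and Sdha carries 3 NRF1 matches. Sequences are from RefSeq on GRCm38.p6, read 5′ to 3′ on the gene's strand, and capitals mark the matched letters on either strand. The stretches lie at chr2:73911327-73911576, minus strand, for Atp5g3, at chr3:105959454-105959513, minus strand, for Atp5pb, at chr9:50603890-50603949, minus strand, for Sdhd, and at chr13:74350241-74350350, minus strand, for Sdha. They end 1 base before the annotated start for Atp5g3 and Sdha, 191 bases before it for Atp5pb and 41 bases before it for Sdhd. All are therefore upstream of the annotated transcript.
Atp5g3: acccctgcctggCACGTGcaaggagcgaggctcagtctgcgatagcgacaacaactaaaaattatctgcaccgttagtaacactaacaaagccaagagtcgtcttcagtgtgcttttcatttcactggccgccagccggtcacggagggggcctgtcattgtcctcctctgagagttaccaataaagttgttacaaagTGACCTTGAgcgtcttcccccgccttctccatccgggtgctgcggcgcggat
Atp5pb: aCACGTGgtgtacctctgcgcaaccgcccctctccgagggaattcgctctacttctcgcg
Sdhd: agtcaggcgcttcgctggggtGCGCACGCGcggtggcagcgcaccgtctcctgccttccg
Sdha: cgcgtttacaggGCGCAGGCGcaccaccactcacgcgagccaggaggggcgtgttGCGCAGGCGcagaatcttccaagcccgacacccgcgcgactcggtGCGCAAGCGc

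Windows of 300 bases, from 250 before to 50 after the annotated start, were found for 34 of the 46 genes, 37 windows in all. The NRF1 letters GCGCANGCG, searched like all others on both strands, occurred in 12 of the 37 windows, or 32.4%, against 6.25% of all 32851 windows of the table. These 12 belonged to Sdha and Sdhd of complex II, Uqcr11 and Uqcrc1 of complex III, Cox6a1 of complex IV and Atp5c1, Atp5g2, Atp5g3, Atp5h, Atp5k, Atp5l and Atp5o of complex V. The ERR letters TCAAGGTCA occurred in 2 windows (5.41%, against 0.423% of all), those of Atp5g3 and Sdhd, and the shorter AAGGTCA contained in them in 5 (13.5%, against 4.72%). The E-box CACGTG occurred in 4 windows (10.8%, against 7.15%), those of Atp5g1, Atp5g3, Atp5l and Atp5pb. The remaining runs were AANATGGCG for YY1 in 3 windows (8.11%, against 2.38%), CCGGAAGTG for GABPA in 1 (2.7%, against 2.03%) and GGGGCGGGG for Sp1 in 5 (13.5%, against 11.4%). A match describes letters in a window and shows no binding.

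Per kilobase of transcript, which allows levels of different genes to be compared, the set spanned from 2.52 CPM per kb for Atp5g2 to 1267 CPM per kb for Atp5e, an ATP synthase stalk subunit, as means over the 18 samples. In both sedentary groups Cox6c and Atp5b stood above Atp5e, whose means were 974 and 930.2 CPM per kb there and 1604 and 1752 CPM per kb in the trained groups with vehicle and labelled knockout. Next to Atp5e over all samples stood Cox6c at 1240.0, Uqcrq at 1101 and Atp5b, the catalytic beta subunit, at 1019 CPM per kb. Over the 4 groups their samples overlapped widely, from 523 to 2640.3 CPM per kb for Atp5e and from 744 to 1298 CPM per kb for Atp5b. Whether these neighbours differ within samples was not tested. All 4 genes of complex II stood lower, between 78.3 for Sdhc and 293 for Sdhb. The lowest 5 were Cox8a, Cox6a1, Cox6c2, Cox4i2 and Atp5g2.

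For several complex IV subunits the genome holds a form enriched in heart and skeletal muscle and a form used widely. Cox6a2, the muscle form, stood 23.2-fold above Cox6a1 per kilobase in vehicle sedentary muscle, and Cox8b 11.7-fold above Cox8a. Cox7a1 stood 1.89-fold above Cox7a2, the least unequal of these muscle pairs. Cox4i1 stood 320-fold above Cox4i2, the form known from lung and from low oxygen. Of the Atp5g genes, which encode the same mature c-ring subunit with different import signals, Atp5g3 stood 3.04-fold above Atp5g1, and Atp5g1 84.1-fold above Atp5g2. The mean log2 ratio of Cox7a1 to Cox7a2 was 0.92 ± 0.04 in vehicle sedentary, 0.91 ± 0.20 in labelled-knockout sedentary, 0.92 ± 0.24 in vehicle trained (SD, n = 5 each) and 1.25 ± 0.07 in labelled-knockout trained muscle (SD, n = 3). The 3 samples of the last group, at 1.17 to 1.30, lay above all 5 vehicle-trained samples, at 0.55 to 1.14. The Cox6a2 to Cox6a1 ratio was 4.57 ± 0.29 in vehicle trained (SD, n = 5) and 4.90 ± 0.13 in labelled-knockout trained muscle (SD, n = 3), with overlapping samples. These ratios were not tested.

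In sedentary muscle, no gene of the set passed the test between labelled knockout and vehicle. By edgeR's quasi-likelihood test with Benjamini-Hochberg adjustment, 0 of 46 genes were called at an adjusted p under 0.05, beside 334 of all 14361 genes, or 2.33%. An unadjusted p under 0.05 was found for 0 of the 46, beside 1410 of all genes, and DESeq2 called 0 of the 46 (its share over all genes is not given here). The median log2 change was 0.03 over the set and 0.01 over all genes, and 31 of the 46 changes were positive. The largest were those of Cox7b at 0.30 (SE 0.20), Cox6c2 at 0.28 (SE 0.33) and Atp5k at 0.26 (SE 0.22). The smallest were those of Cox7a2l, a factor for assembling supercomplexes, at -0.31 (SE 0.18, edgeR adjusted p = 0.690), Atp5e at -0.12 (SE 0.29) and Cox6a2 at -0.06 (SE 0.16). Cox5a, Cox5b and Atp5pb did not overlap between the groups, each higher under the knockout label, which is 3 of 46 genes beside 5.63% of all genes. Cox5a, a structural complex IV subunit that was chosen here for its value in trained muscle, stood at 307 to 364 CPM with vehicle and at 379.7 to 439 CPM in the labelled knockouts, where edgeR gave 0.18 ± 0.12 (SE) on the log2 scale and an adjusted p of 0.788.

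In trained muscle, between labelled knockout and vehicle, 15 of the 46 genes rose and 0 fell by edgeR's quasi-likelihood test with Benjamini-Hochberg adjustment, beside 473 of all genes called in either direction (3.29%) and 286 called higher (1.99%). DESeq2 called 20, beside 6.32% of all genes. The risers by edgeR were Sdhb, Sdhc and Sdhd of complex II, Cyc1, Uqcrc1 and Uqcrfs1 of complex III, Cox4i2, Cox5a and Cox5b of complex IV, and Atp5a1, Atp5b, Atp5d, Atp5g3, Atp5o and Atp5pb of complex V. The median log2 change was 0.48 over the set and -0.03 over all genes, and 45 of 46 changes were positive. By complex the medians were 0.56, 0.48, 0.41 and 0.51 for II, III, IV and V. In 13 of 46 genes every labelled-knockout sample lay above every vehicle sample, beside 3.98% of all genes. In bulk tissue, a different share of cells or fibres of a type and a different amount of RNA per cell cannot be told apart.

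The calls depended on how the spread was estimated and on single samples. Fitted on the trained groups alone, edgeR called 0 of 46 (smallest adjusted p = 0.283, beside 0.139% of all genes) with a median log2 change of 0.47. Without vehicle-trained library 2 in that fit it called 1 of 46, Cyc1, beside 2.63% of all genes. With all 4 groups sharing the spread, 21 genes were called without vehicle-trained library 2 (beside 8.66% of all genes) and 8 without vehicle-trained library 4 (beside 2.22%). Without labelled-knockout trained library 2 the count was 7 (beside 2.08%), and without libraries 3 and 5 it was 2, Cox5a and Atp5g3 (beside 1.23%). The median stayed between 0.39 and 0.67 whichever sample was left out of the 4-group fit.

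**Figure D1:**
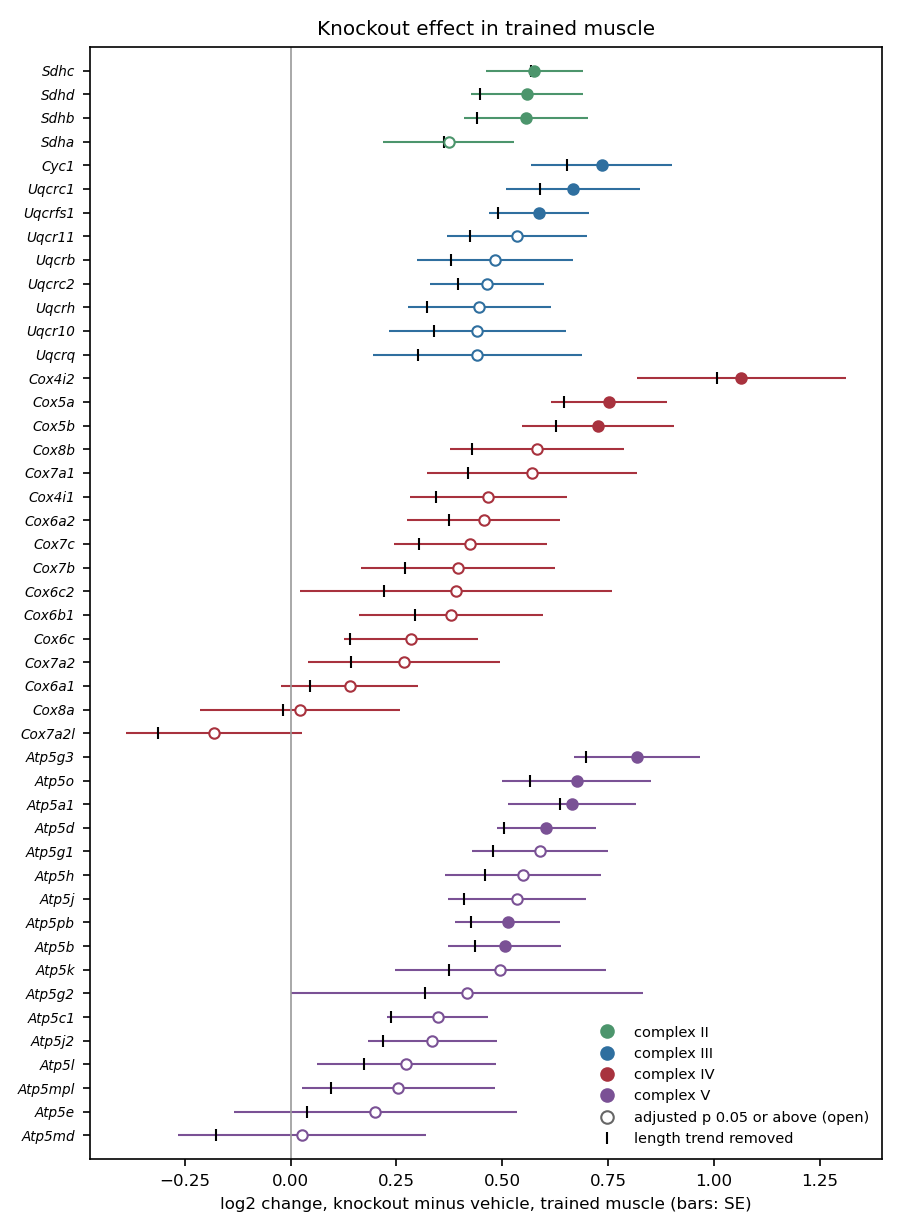
Log2 change between labelled-knockout and vehicle trained muscle for the 46 genes, by complex, from edgeR on 18 samples, with bars for the standard error. Filled points are the 15 genes with an adjusted p under 0.05, and vertical ticks give the change after removal of each sample's transcript length trend; 45 of 46 points lie right of 0.

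Of the 4 genes of complex II, 3 were called, and 1, Sdhc, with the length trend removed. Sdhc (ENSMUSG00000058076), a membrane anchor of the complex, had 250.2, 267, 248, 235 and 229.9 CPM in vehicle sedentary libraries 1 to 5 and 249, 239, 251, 275 and 245 CPM in labelled-knockout sedentary libraries 1 to 5. It had 243, 182, 229.7, 195 and 209.8 CPM in vehicle-trained libraries 1 to 5, and 292, 303 and 324 CPM in labelled-knockout trained samples 1 and 4, 2, and 3 and 5. The trained groups did not overlap, and the vehicle-trained group reached lowest of the 4. The log2 change in trained muscle was 0.58 with SE 0.11, a 1.49-fold difference (edgeR adjusted p = 0.00821). Sdhd, the other anchor, rose by 0.56 (SE 0.13, edgeR adjusted p = 0.0247), from 189 ± 35.4 CPM (SD, n = 5) to 269 ± 18.3 CPM (SD, n = 3). Sdhb, the iron-sulfur subunit, rose by 0.56 (SE 0.15, edgeR adjusted p = 0.0439), but vehicle-trained library 1, at 379.7 CPM, lay above the lowest labelled knockout, at 360.1 CPM. Sdha, the flavoprotein subunit, differed by 0.37 (SE 0.15, edgeR adjusted p = 0.217), with 359 to 614 CPM against 560.1 to 722 CPM.

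In complex III, 3 of 9 genes rose. Uqcrfs1 (ENSMUSG00000038462), the Rieske iron-sulfur protein, had 456, 472, 443, 441 and 426 CPM in vehicle sedentary and 467, 436, 433, 481 and 477 CPM in labelled-knockout sedentary libraries. It had 482, 337, 430.2, 371 and 414 CPM in vehicle-trained libraries and 573, 590.4 and 614 CPM in labelled-knockout trained samples. These 3 samples were the highest of all 18, and the log2 change of 0.59 had an SE of 0.12 (edgeR adjusted p = 0.00821). Cyc1, cytochrome c1, went from 124 to 268 CPM in vehicle-trained libraries to 358 to 392 CPM in the labelled knockouts, a change of 0.74 (SE 0.17, edgeR adjusted p = 0.0199); without vehicle-trained library 2, which held the 124 CPM, the change was 0.59 (adjusted p = 0.00044). Uqcrc1, a core protein, rose by 0.67 (SE 0.16, edgeR adjusted p = 0.0251). Its partner core protein Uqcrc2 also did not overlap, at 243 to 360.3 CPM against 418 to 437 CPM, but missed the threshold (edgeR adjusted p = 0.0666). The small subunits Uqcr10, Uqcr11, Uqcrb, Uqcrh and Uqcrq had changes of 0.44 to 0.54, with none called. With the length trend removed, Uqcr11 was called (edgeR adjusted p = 0.0192).

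Complex IV had calls in 3 of 16 genes. Cox5a (ENSMUSG00000000088) had 341, 358, 331, 364 and 307 CPM in vehicle sedentary and 393, 399, 388, 439 and 379.7 CPM in labelled-knockout sedentary libraries. It had 444, 319, 323, 293 and 324 CPM in vehicle-trained libraries and 473, 591 and 602 CPM in labelled-knockout trained samples. Both labelled-knockout groups lay above vehicle sedentary, and among vehicle-trained libraries only library 1 came near the trained labelled knockouts. The sedentary difference was not called (edgeR adjusted p = 0.788), and 5.63% of all genes were likewise higher without overlap there. The trained difference was 0.75 on the log2 scale with SE 0.14, or 1.69-fold (edgeR adjusted p = 0.00395). Cox5b, another structural subunit, rose by 0.73 (SE 0.18, edgeR adjusted p = 0.0324) with overlapping samples. Its pseudogene entry Cox5b-ps was listed at a mean of 47.2 CPM, so its reads may be split with a near-identical copy, as may those of Atp5pb, whose pseudogene entry was listed at 60.7 CPM.

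Cox4i2 had the largest change of the set at a low level. It had 2.09, 1.86, 1.62, 1.91 and 1.47 CPM in vehicle sedentary and 2.06, 1.73, 2.74, 2.17 and 2.10 CPM in labelled-knockout sedentary libraries. It had 1.73, 1.59, 1.23, 1.71 and 0.727 CPM in vehicle-trained libraries and 3.02, 2.37 and 3.10 CPM in labelled-knockout trained samples. The trained groups did not overlap (log2 change 1.07, SE 0.25, edgeR adjusted p = 0.0228). Its abundant counterpart Cox4i1 differed by 0.47 (SE 0.19, edgeR adjusted p = 0.201), with 999, 695, 583, 669 and 663 CPM in vehicle-trained libraries and 678, 1185 and 1011 CPM in the labelled knockouts.

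The other isoforms of complex IV had no call in trained muscle by edgeR on all 18 samples. Muscle-form Cox7a1 had 279, 125, 129, 148 and 156 CPM in vehicle-trained libraries and 163, 298 and 252 CPM in labelled-knockout samples (log2 change 0.57, edgeR adjusted p = 0.244). Cox7a2 had 217, 144, 98.1, 137 and 139 CPM against 111, 222 and 175 CPM (0.27, edgeR adjusted p = 0.573). Cox7a2l was the member with a negative change, -0.18 with SE 0.21 (edgeR adjusted p = 0.691), and labelled-knockout sample 1 and 4 held the lowest value of the trained samples, 88.3 CPM. In Cox7a1 vehicle-trained library 1 alone reached into the range of the labelled knockouts, and in Cox7a2 and Cox7a2l the groups overlapped more widely. Cox6a2 stood at 626, 693, 452, 401 and 446 CPM against 596, 716 and 784 CPM (0.46, edgeR adjusted p = 0.198), and Cox6a1 at 25.7, 19.1, 15.3, 18.3 and 14.1 CPM against 16.8, 22.1 and 20.2 CPM (0.14, adjusted p = 0.698). Without vehicle-trained library 2, Cox6a2 was called (0.61, edgeR adjusted p = 0.0155), beside 8.66% of all genes. Cox8b stood at 334, 216, 166, 206 and 233 CPM against 226, 415 and 354 CPM (0.58, edgeR adjusted p = 0.146). For Cox8a the change was 0.02 (edgeR adjusted p = 0.974) with 55.2 CPM in vehicle-trained library 2, and 0.33 (adjusted p = 0.179) without that library. With the length trend also removed, Cox6a2 (0.45, edgeR adjusted p = 0.0429) and Cox8b (0.33, adjusted p = 0.0182) were called, beside 8.39% of all genes.

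In complex V, 6 of 17 genes rose, and they span the catalytic head, the stalks and the c-ring. Atp5g3 (ENSMUSG00000018770), a gene of the c-ring subunit, had 428, 480.1, 445, 472 and 384 CPM in vehicle sedentary and 505, 469, 494, 516 and 446 CPM in labelled-knockout sedentary libraries. It had 575, 343, 417, 380.0 and 421 CPM in vehicle-trained libraries and 595, 823 and 761 CPM in labelled-knockout trained samples. The trained labelled knockouts were the 3 highest of 18 samples, with vehicle-trained library 1 next. The log2 change was 0.82 with SE 0.15, or 1.76-fold (edgeR adjusted p = 0.00395). Atp5g1 missed the threshold narrowly at 0.59 (SE 0.16, edgeR adjusted p = 0.0509), but was called with the length trend removed (adjusted p = 0.0109). Atp5g2, at 0.445 to 1.40 CPM in trained samples, differed by 0.42 with SE 0.42.

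Of the catalytic head, the alpha subunit Atp5a1 had 1367, 851, 1476, 1189 and 1337 CPM in vehicle-trained libraries and 2086, 1749 and 1929.9 CPM in labelled-knockout samples, a rise of 0.67 (SE 0.15, edgeR adjusted p = 0.0201). The beta subunit Atp5b rose by 0.51 (SE 0.13, edgeR adjusted p = 0.0438), from 1660.5 ± 166 CPM (SD, n = 5) to 2299 ± 207 CPM (SD, n = 3). The groups did not overlap in either gene. Atp5d, a subunit of the central stalk, rose by 0.60 (SE 0.12, edgeR adjusted p = 0.00645). Atp5o and Atp5pb, both of the peripheral stalk, rose by 0.68 (SE 0.18, edgeR adjusted p = 0.0412) and 0.51 (SE 0.12, adjusted p = 0.0280). The lowest changes of the complex were those of Atp5md at 0.03 and Atp5e at 0.20, which also had wide spreads, 392 to 1039 CPM for Atp5e in the labelled knockouts and 393 to 1112 CPM with vehicle.

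**Figure D2:**
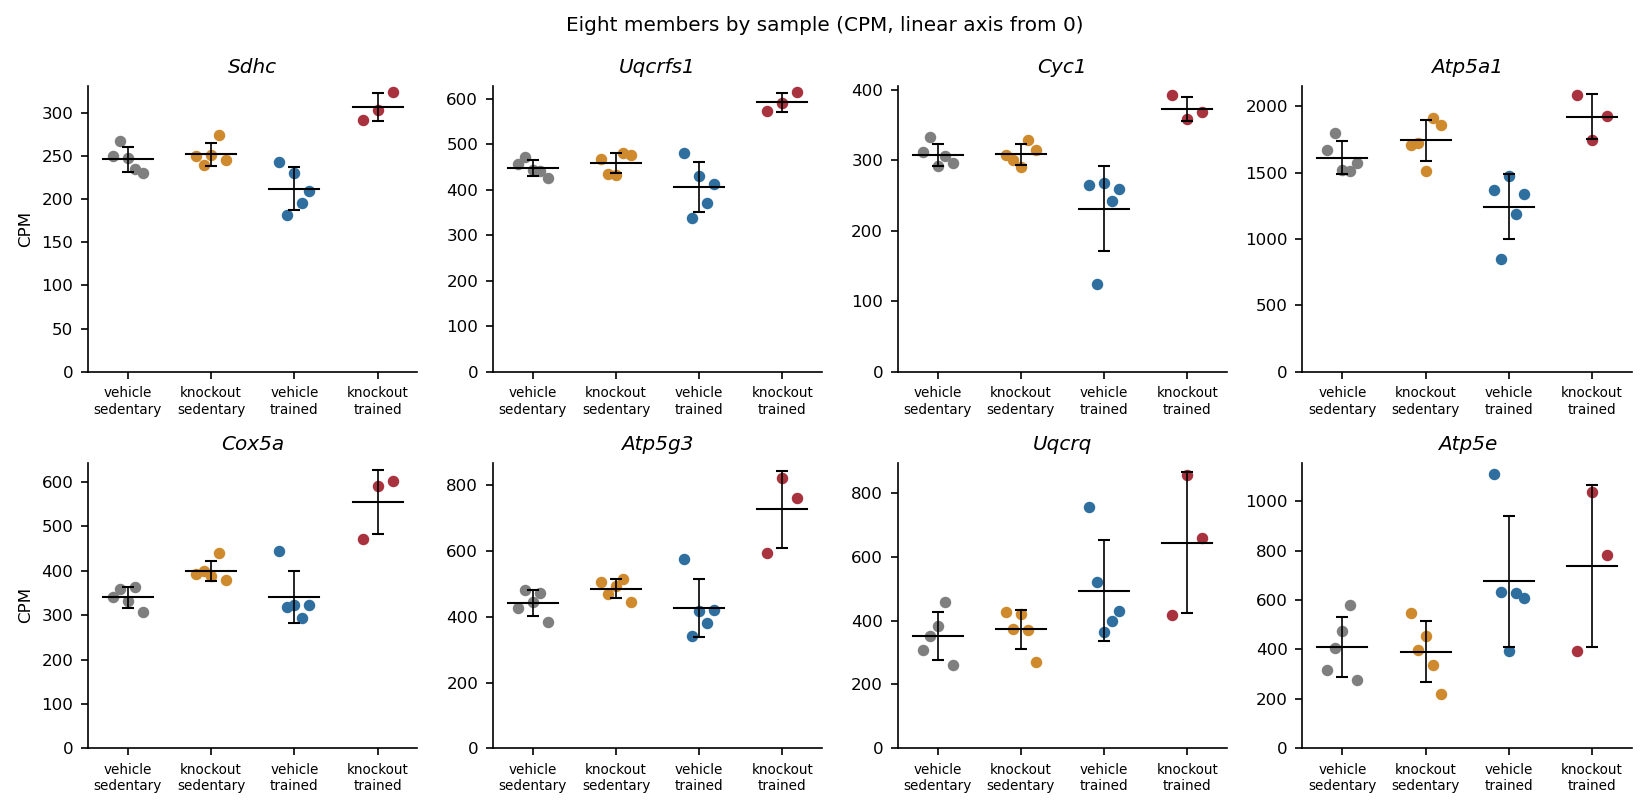
CPM of 8 genes in each of 18 samples, with the linear axis starting at 0, points for samples, horizontal lines for group means and bars for the SD. In Sdhc, Uqcrfs1, Cyc1, Atp5a1, Cox5a and Atp5g3 the 3 labelled-knockout trained samples lie above all 5 vehicle-trained samples, whereas in Uqcrq and Atp5e the groups overlap.

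The samples of a trained group did not move in step across the set. Averaged over the 46 genes after TMM scaling, which the CPM values of single genes do not carry, the mean log2 CPM was 7.30 to 7.53 in vehicle sedentary, 7.39 to 7.58 in labelled-knockout sedentary and 7.38 to 7.995 in vehicle-trained libraries. It was 7.71, 8.30 and 8.22 in labelled-knockout trained samples 1 and 4, 2, and 3 and 5. Vehicle-trained library 1 thus lay above the lowest of the labelled knockouts. Against the mean of vehicle sedentary, 37 of 46 genes were higher in vehicle-trained library 1, 20 in library 4, and 41, 45 and 46 in the 3 labelled-knockout trained samples. This count varied within the sedentary groups as well, from 9 to 37 genes in vehicle and from 21 to 38 in labelled-knockout sedentary libraries.

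**Figure D3:**
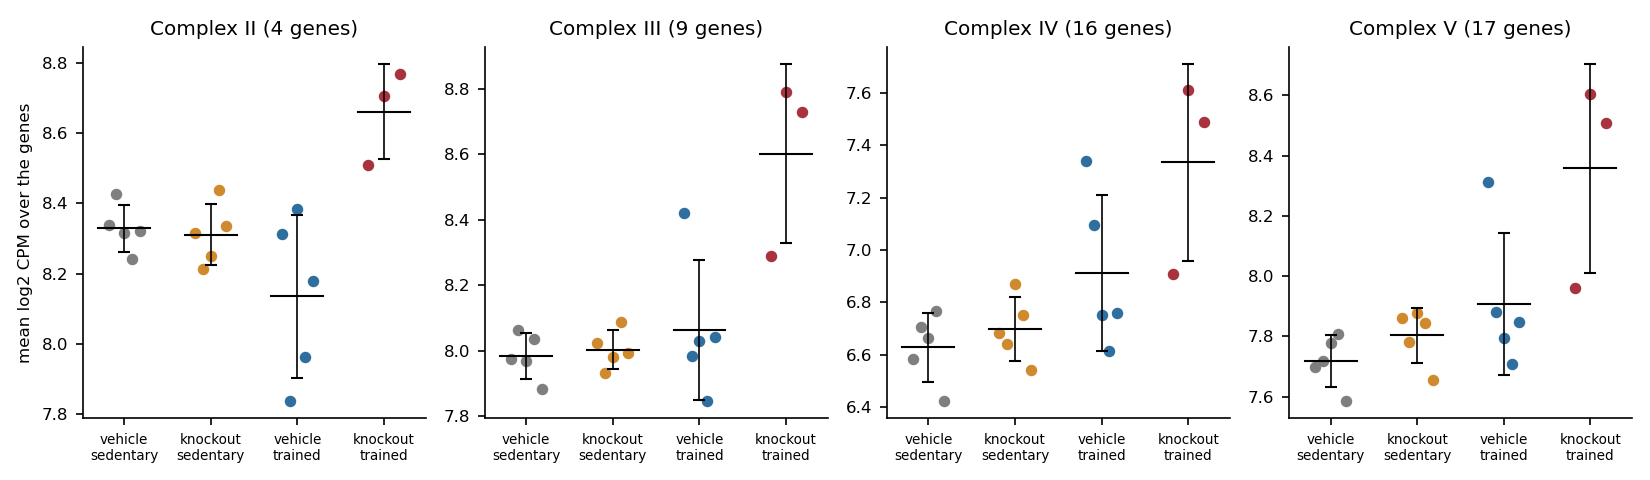
Mean TMM-scaled log2 CPM over the genes of each complex in every sample, with group means (lines) and SD (bars); the vertical scales differ between panels and do not start at 0. In complex II all 3 labelled-knockout trained samples, at 8.51 to 8.77, lie above all 5 vehicle-trained samples, at 7.84 to 8.38. In complexes III to V vehicle-trained library 1 lies within the range of the labelled-knockout trained samples, and in complex IV library 2, at 7.10, does too.

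Transcript length moved with these differences. The set has short transcripts, 231 to 3171 nucleotides with a median of 669.5, against 2687 for all tested genes with a length. Over all genes, Spearman's rho between length and a sample's deviation from vehicle sedentary was -0.34 in vehicle-trained library 1, -0.44 and -0.43 in labelled-knockout trained samples 2, and 3 and 5, and -0.01 in sample 1 and 4, and it ran from -0.18 to 0.15 in the remaining samples. These are descriptions across genes, which are not independent replicates. In labelled-knockout sample 2 the 27 members under 800 nucleotides deviated by a median of 1.09 and the 8 members of 1500 nucleotides or more by 0.31, whereas in sample 1 and 4 the values were 0.25 and 0.29. In vehicle-trained library 2 they were 0.52 and -0.57.

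The difference between labelled knockout and vehicle in trained muscle was present in every length class. Its median log2 change was 0.44 over the 27 shortest members, 0.56 over the 11 from 800 to under 1500 nucleotides and 0.54 over the 8 longest, beside 0.04, 0.07 and -0.05 over all genes of those lengths. With the length trend of each sample removed, a step added after seeing the data, 15 members were called, again all higher, beside 3.33% of all genes, and the median was 0.38. The calls of Sdhb, Sdhd and Atp5b were lost in that fit (edgeR adjusted p = 0.0621, 0.0629 and 0.0845), and those of Uqcr11, Atp5g1 and Atp5h were gained (adjusted p = 0.0192, 0.0109 and 0.0221). With vehicle-trained library 2 also left out 24 members were called, beside 8.39% of all genes.

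**Figure D4:**
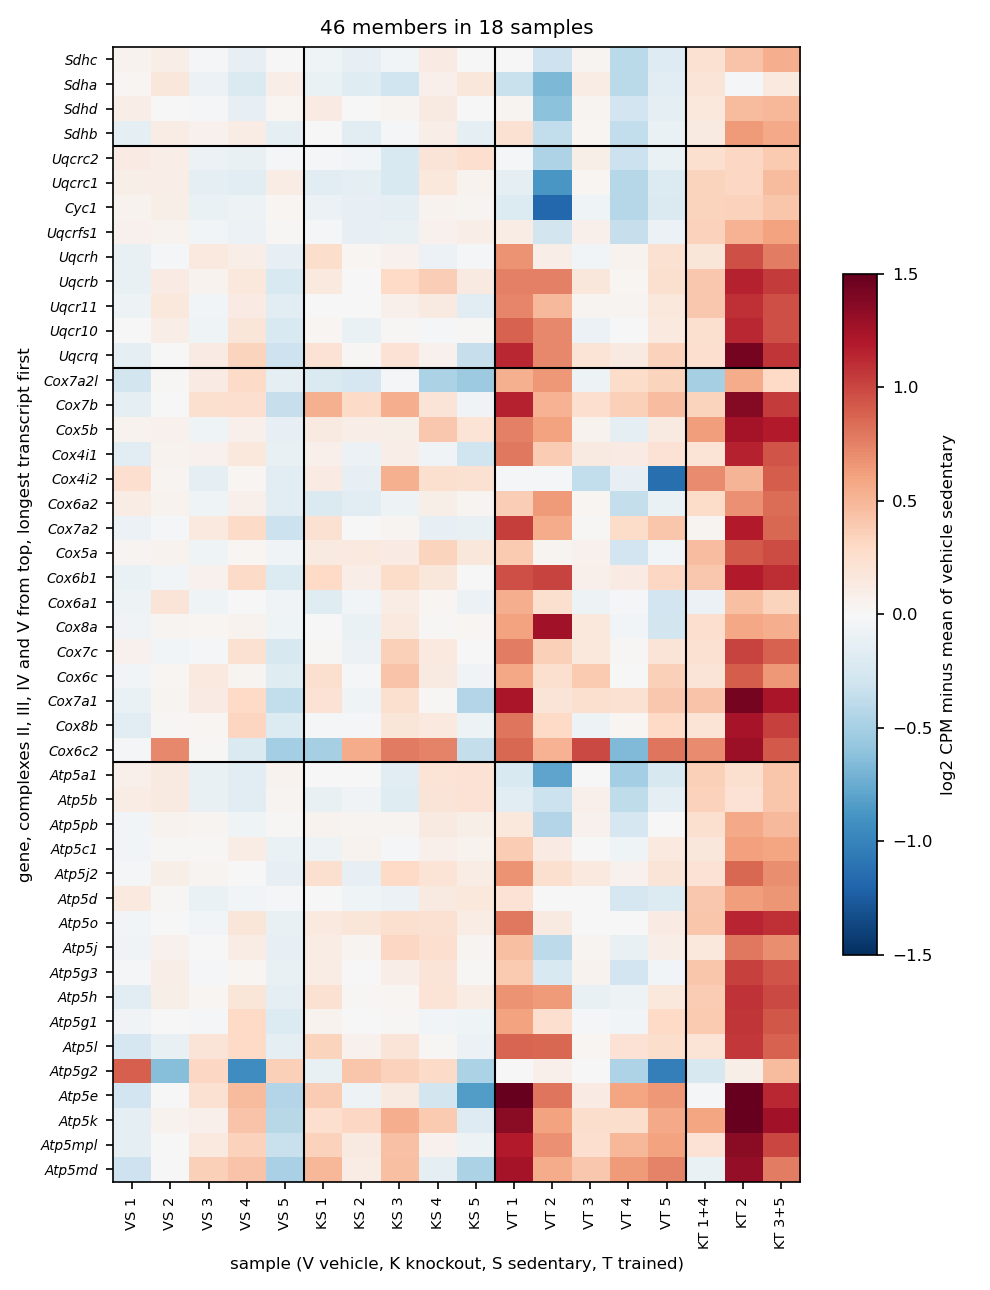
TMM-scaled log2 CPM of each gene minus its mean in vehicle sedentary, in 18 samples (columns) for 46 genes (rows, complexes II to V from top, longest transcript first within each). Vehicle-trained library 1 and labelled-knockout trained samples 2, and 3 and 5 are high in the short genes at the foot of each block, and the long genes are low in vehicle-trained library 2 and above the vehicle sedentary mean in all 3 labelled-knockout trained samples except for Sdha in sample 2.

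Training in vehicle muscle left no gene called. By edgeR's quasi-likelihood test 0 of 46 members were called, as were 0 of all 14361 genes (0.0%), and DESeq2 called 0 members (its share over all genes is not given here). An unadjusted p under 0.05 by edgeR was found for 19 members, beside 2186 of all genes. The median change was 0.26 over the set and 0.03 over all genes, with 31 positive and 15 negative. The largest were Atp5e at 0.77 (SE 0.29), Atp5md at 0.71 (SE 0.26) and Atp5mpl at 0.66 (SE 0.20, edgeR adjusted p = 0.272), all of ATP synthase. The smallest were Atp5g2 at -0.41 (SE 0.37), Cyc1 at -0.37 (SE 0.15, edgeR adjusted p = 0.282) and Atp5a1 at -0.33 (SE 0.13, adjusted p = 0.282). Every vehicle-trained library lay below every vehicle sedentary library in Cyc1 and Atp5a1, beside 2.73% of all genes. By length class the members' medians were 0.35, 0.12 and -0.23 from short to long, beside 0.38, 0.12 and -0.01 over all genes of those lengths, so the 8 longest members lay lower than genes of their length. With the length trend removed the median over the set was -0.084, so its direction turned, and over the 8 longest members it was -0.19 against 0.04 over all genes of that length.

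Training in labelled-knockout muscle was positive for all 46 members, with 0 called by edgeR (smallest adjusted p = 0.0959) beside 0.0% of all genes. An unadjusted p under 0.05 by edgeR was found for 39 members, beside 1391 of all 14361 genes. DESeq2 called 22 members, all higher, beside 1.2% of all genes. The median change was 0.63 against -0.02 over all genes. The largest were Atp5e at 1.09 (SE 0.33, edgeR adjusted p = 0.240), Cox7a1 at 1.07 (SE 0.25, adjusted p = 0.123) and Uqcrq at 0.95 (SE 0.24, adjusted p = 0.159). The smallest were Atp5g2 at 0.02 (SE 0.41), Sdha at 0.16 (SE 0.16) and Uqcrc2 at 0.28 (SE 0.13). In 21 members all 3 trained samples lay above all 5 sedentary ones, beside 2.1% of all genes.

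That contrast depended on the length trend and on which samples entered. Without vehicle-trained library 2, which changes only the shared spread and scaling, edgeR called 15 members (beside 0.843% of all genes), without vehicle-trained library 1 it called 9 (beside 0.313%), and without labelled-knockout trained libraries 1 and 4 it called 31 (beside 2.76%). With the length trend removed 0 were called and the median was 0.27. By length class the members' medians were 0.73, 0.50 and 0.34, above the 0.45, 0.19 and -0.06 of all genes of those lengths.

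**Figure D5:**
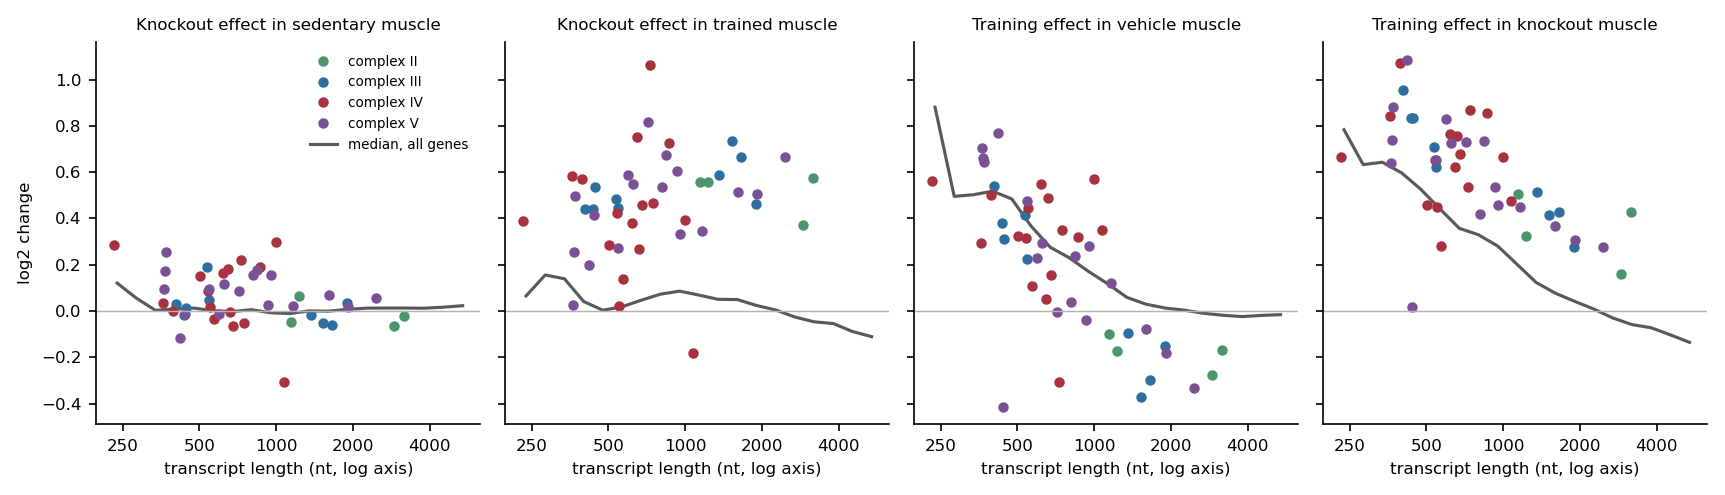
Log2 change of the 46 genes against transcript length (log axis) in 4 comparisons, coloured by complex, with the running median over all tested genes as a grey line. In both training comparisons the points fall with length as the line does, and in the trained knockout comparison the median of the points is near 0.5 in each length class, above the line.

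The difference between the training effects in labelled-knockout and vehicle muscle, the interaction, had 0 of 46 members called by edgeR (smallest adjusted p = 0.605) beside 0.0% of all genes, and 5 by DESeq2 beside 0.202% of all genes. By edgeR the interaction had an unadjusted p under 0.05 for 20 members, beside 1077 of all 14361 genes. It was positive for 45 members, with a median of 0.44 against -0.02 over all genes. The largest were those of Cox4i2 at 0.85 (SE 0.33), Cyc1 at 0.79 (SE 0.22) and Atp5g3 at 0.73 (SE 0.20), and the smallest those of Atp5md at -0.07 (SE 0.39), Cox8a at 0.00 (SE 0.31) and Atp5mpl at 0.08 (SE 0.30). The comparisons share samples, so their values stand side by side and are not independent.

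Genes that work with these complexes were tested in the same comparison. Of 39 tested assembly factors, 2 rose between labelled knockout and vehicle, beside 1.99% of all genes called higher: Tmem70, which helps assemble ATP synthase (log2 change 0.51, edgeR adjusted p = 0.0341), and Higd2a, an assembly factor of complex IV (0.54, adjusted p = 0.0401), and 33 changes were positive with a median of 0.23. Cycs, cytochrome c itself, differed by 0.59 (SE 0.17, edgeR adjusted p = 0.0610). Of the 6 subunits encoded by mitochondrial DNA, 0 were called by edgeR and 0 had an unadjusted p under 0.05, with changes of 0.04 to 0.23, and their summed level ran from 84597 to 135050 CPM in vehicle-trained and from 105300 to 117630 CPM in labelled-knockout trained samples. Of 13 regulators of these genes 0 were called by edgeR and 6 had an unadjusted p under 0.05, beside 2467 of all 14361 genes. Those 6 included the coactivator gene Ppargc1a at -1.74 (SE 0.64, edgeR adjusted p = 0.166) and Esrra at 0.60 (adjusted p = 0.207). Ppargc1a was 162 ± 220.4 CPM in vehicle-trained libraries (SD, n = 5). Without vehicle-trained library 2 its change was -0.32 (edgeR adjusted p = 0.252), 8 of the 13 regulators were positive, 1, Esrra, was called (0.40, adjusted p = 0.0246), and 4 assembly factors were called, beside 8.66% of all genes. Whether these lists differ from the subunits was not tested.

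Markers of fibre types and of other cells were read beside these differences. Of 10 slow-fibre genes, 1, Casq2, rose in trained labelled knockouts (log2 change 1.81, edgeR adjusted p = 0.00223), all 10 changes were positive and their median was 0.88. For 8 of the 10 the unadjusted p by edgeR was under 0.05, beside 2467 of all 14361 genes. Their sum ran from 496 to 1518 CPM in vehicle-trained and from 1164 to 1534 CPM in labelled-knockout trained samples. Casq2 rose in sedentary labelled knockouts as well (1.46, edgeR adjusted p = 0.00456), where 7 of the 10 slow-fibre changes were negative. Of 11 muscle-fibre genes, Mb, which encodes myoglobin, and Tnnc2, fast troponin C, rose (0.96 and 0.60, edgeR adjusted p = 0.0438 and 0.0494). All 9 macrophage markers had negative changes in trained muscle, with 0 called by edgeR and 3 with an unadjusted p under 0.05, beside 2467 of all 14361 genes. They summed to 171 to 453 CPM with vehicle and to 60.1 to 337 CPM in the labelled knockouts. In the blood, adipocyte, Schwann cell, endothelial, satellite cell and brown adipocyte lists, 0 markers were called by edgeR and 3 (1 of Schwann cells and 2 of endothelium) had an unadjusted p under 0.05 (1 satellite cell marker was called without vehicle-trained library 2), and their sums in vehicle-trained and labelled-knockout trained samples overlapped. With training in vehicle muscle all 9 macrophage changes were positive (median 1.14) and all 10 slow-fibre changes negative (median -0.72). By edgeR 0 of either list were called there, as were 0 of all 14361 genes. An unadjusted p under 0.05 was found there for all 9 macrophage and 5 of the 10 slow-fibre genes, beside 2186 of all genes. With training in labelled-knockout muscle the medians were 0.04 and 0.49. The part of these cells and fibres in the differences of the complex II to V genes was not tested.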

How the data were processed

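The deposited table holds estimated counts per gene for 20 libraries; 72.0% of its values are whole. Per the submitters' processing notes, Partek, STAR 2.7.8a and DESeq2 were used and the builds mm10 and GRCm39 are named, with no role or order, so RefSeq coordinates are given only for the RefSeq sequences. In multigene families and pseudogenes, such counting can split reads: 37 of the 46 genes had values that were not whole in 10 or more libraries. Counting by strand is not given in the sources used here.

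Counts were rounded, genes with at least 1 CPM in 5 libraries kept, and edgeR 4.0.16 (TMM scaling, quasi-likelihood test, Benjamini-Hochberg adjustment over 14361 genes, threshold 0.05) fitted on all 4 groups. Libraries were merged, with counts summed for the fits and CPM averaged, where the noise ratio of the pair was under 1.5 (1.25 or less, all other pairs 2.31 or more). Vehicle-trained library 2 was kept. Alternatives used DESeq2 1.42.0, other scaling, filters and samples, and offsets that remove a lowess trend on transcript length or GC (GENCODE M21), the last chosen after seeing the data. Functions were tested on simulated data. Arntl was tested on log2(CPM + 1). All members may be named; those called in a comparison are, or else the 3 largest and 3 smallest changes, and values per library are given for the lowest p in each complex and for isoforms. The members and lists were chosen with earlier results of these data known. R 4.3.3 and Python 3.11.15 were used.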

Additional observations from a re-analysis of the deposited data

Results flagged for a closer look

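A value was marked where the highest or lowest of 5 samples stood off from the rest by more than Dixon's 95% limit; 156 groups were looked at and 15 marked, where chance marks about 1 in 20, or 7.8. The group of 3 labelled-knockout trained samples was too small for this. Of the 15, 10 were high values in vehicle-trained library 1. There Cox4i1 stood at 999 CPM (others 583 to 695), Cox5a at 444 CPM (293 to 324), Cox7a1 at 279 CPM (125 to 156), Cox7b at 1079.6 CPM (533 to 664) and Cox7c at 235 CPM (142 to 163). Of complex V, Atp5d stood at 245 CPM (180.5 to 194), Atp5j2 at 399.9 CPM (255 to 282), Atp5k at 237 CPM (102 to 136) and Atp5o at 471 CPM (249 to 291), and the complex V mean at 8.31 log2 CPM (7.71 to 7.88). In vehicle-trained library 2, Cyc1 was low at 124 CPM (241 to 268) and Arntl high at 132 CPM (6.32 to 6.68). In labelled-knockout sedentary muscle, Uqcr11 was low in library 5 at 114 CPM (136 to 145), Cox5b high in library 4 at 222 CPM (183 to 189) and Arntl high in library 1 at 18.9 CPM (10.96 to 13.1).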

How the results depend on the processing

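The absence of calls in sedentary muscle and for training in vehicle muscle held under every alternative run (0 members in each), and leaving out 1 sample at a time gave medians of 0.02 to 0.07 and of 0.13 to 0.32. Without vehicle-trained library 2, 1001 of all 14361 genes were called in sedentary muscle, against 334 with it, and 0 for vehicle training. Apart from the replicate block below, the shares over all genes in the other runs of these 2 comparisons are not given here. For labelled knockout against vehicle in trained muscle, 15 members were called with other scaling (beside 3.34% of all genes), 20 by DESeq2 (6.32%), 13 with no filter (1.73%), 19 with 20 separate libraries (8.53%), 15 with the length trend removed (3.33%) and 14 with the GC trend removed (2.94%), against 15 (3.29%). The trained groups alone gave 0 (0.139%), and 1 without vehicle-trained library 2 (2.63%). Removing the length trend together with that library gave 24 (8.39%). Leaving out 1 sample at a time gave 2 to 22 calls and medians of 0.39 to 0.67. None of the 15 genes changed sign under any setting. For training in labelled-knockout muscle, DESeq2 gave 22 calls (1.2%), separate libraries 7 (0.341%) and leaving out 1 sample 0 to 31 (medians 0.50 to 0.82). The median was 0.27 with the length trend removed, with or without vehicle-trained library 2. For vehicle training those medians were -0.084 and -0.044. The interaction had 5 calls by DESeq2, 0 when any 1 sample was left out, and medians of 0.34 to 0.61. Without vehicle-trained library 2 the Arntl difference in trained muscle turned from -0.21 to 0.62 on the log2(CPM + 1) scale (exact permutation p = 0.0571). That p is the smallest that groups of this size allow, as the groups did not overlap (6.32 to 6.68 CPM with vehicle, 8.04 to 16.1 CPM in labelled knockouts). The Arntl difference was -0.43 to 0.62 over the vehicle libraries left out and down to -0.50 over the labelled-knockout samples, and in sedentary muscle it stayed at 0.72 to 0.90. The causes were not tested. With the replicate number as a block over 20 separate libraries (replicate block), 16 members were called in trained muscle (beside 6.82% of all genes) and 0 in each other comparison (beside 2.34% of all genes in sedentary muscle and 0.0% in the rest). Correlations between the deviations of same-numbered libraries had either sign (30 pairs, r from -0.34 to 0.29, 11 over 0.1, and 4 of 20 libraries closest to their own number). The labelled-knockout trained group had 3 samples, which limits its precision, and Cox4i2, Atp5g2 and Cox6c2 lie near the CPM minimum, where few counts stand behind a value.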
